A study of Trichoderma reesei with 17 samples.

Results

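The effect of deleting *xyr1* was compared between 2 inducing carbon sources in the filamentous fungus *Trichoderma reesei*, to find the functions whose transcripts moved one way in cellulose and the other way in sophorose. The comparison took the 12 RNA-seq libraries of the cellulose and sophorose cultures, of 17 in the series, which form 4 groups of 3 biological replicates. They are Δxyr1 in cellulose, QM9414 in cellulose, Δxyr1 in sophorose and QM9414 in sophorose, where QM9414 is the parental strain and Δxyr1 is the same strain without *xyr1*. The medium held 1% (w/v) cellulose or 1 mM sophorose as the carbon source, and shaking was at 200 rpm and 28°C. A library holds the pooled RNA of several harvests of 1 replicate. Δxyr1 was harvested from cellulose at 8 and 24 h, QM9414 from cellulose at 24, 48 and 72 h, and either strain from sophorose at 2, 4 and 6 h. A pre-culture of 24 h in glycerol preceded the Δxyr1 cultures, before the transfer to cellulose in the study's methods and before sophorose in the deposited description. Strain and culture scheme can therefore not be told apart in cellulose, and this holds for every difference between the carbon sources given here. The mutant is 1 deletion strain. The other 5 libraries, Δxyr1 and QM9414 in 2% (w/v) glucose, entered the fit and are used only as a further readout.

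XYR1 is a zinc binuclear cluster transcription factor and the main activator of cellulase and xylanase genes in *T. reesei*. Cellulose is an insoluble polymer that the fungus has to degrade before it can feed on it, whereas sophorose is a soluble disaccharide of glucose and a strong inducer of cellulase genes. A gene can thus differ between the strains on either carbon source, and the strain effect in cellulose minus the strain effect in sophorose, called the interaction, measures how far the 2 effects lie apart. On the log2 scale it is above 0 where Δxyr1 relative to QM9414 is higher in cellulose than in sophorose, and below 0 in the reverse case. Calls required a log2 value of 1 or more in size together with an adjusted p up to 0.05 (edgeR's quasi-likelihood test, Benjamini-Hochberg over 8506 genes). Strain effects were called opposite where the interaction and both strain effects were called and the strain effects had different signs. Levels are CPM, counts relative to the scaled library size, and genes are given by the protein ID of the *T. reesei* 2.0 genome as in the deposited tables.

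The 12 libraries held between 7014100 and 26286355 counts. The reads on *xyr1* were lower in Δxyr1 than in QM9414, with 14.7, 9.55 and 8.39 CPM in the Δxyr1 cellulose libraries against 534, 654 and 677 CPM in QM9414, and 83.6, 81.5 and 93.7 CPM in the Δxyr1 sophorose libraries against 2252, 2883 and 2546 CPM in QM9414. Some reads thus remained in Δxyr1, whereas the study reported no coverage of *xyr1* in the mutant. QM9414 in glucose had 9.21 and 10 CPM, less than Δxyr1 in sophorose. The source of the remaining reads was not tested. The interaction of *xyr1* was −0.95 (standard error 0.517, adjusted p = 0.147), which did not pass. Of the libraries, Δxyr1 sophorose replicate 3 stood apart, since ID48266, described as a unique protein, took 35% of its counts against at most 10.1% in the other 11. QM9414 cellulose replicate 1 held 6 genes at a median of 14.4 CPM that were at 20 CPM or more in every glucose library and under 1 CPM in its 2 fellow libraries. In each other library there were at most 4 such genes, at medians of at most 2.31 CPM. The list taken for mycelium held 2 hydrophobin genes, and how well they mark mycelium was not tested. Of these, *hfb2* (ID119989) was high in every library, while *hfb1* (ID73173) was between 0.572 and 64.0 CPM. Nearly all of their sums thus came from *hfb2*. The interaction of *hfb2* was −1.96 (edgeR adjusted p = 0.0439) and was called, and that of *hfb1* was not. The sums of both genes lay between 6170 and 6390 CPM in Δxyr1 cellulose, 9400 and 11200 CPM in QM9414 cellulose, 9110 and 17100 CPM in Δxyr1 sophorose, and 5030 and 6610 CPM in QM9414 sophorose. The list of conidia and sporulation held 11 genes, among them ID82208, which is described only as PKS and was added by its ID. Of the 11, 1 had the interaction called above 0 and 2 below 0. The sums lay between 5070 and 9110 CPM in Δxyr1 cellulose, 6170 and 7880 CPM in QM9414 cellulose, 1110 and 1130 CPM in Δxyr1 sophorose, and 1080 and 1100 CPM in QM9414 sophorose. ID82208 alone had 3300, 4350 and 2700 CPM in Δxyr1 cellulose and 2130, 2280 and 2900 CPM in QM9414 cellulose. The part of both lists in the interaction was not tested, and in RNA from whole cultures fewer cells of a type and less RNA per cell cannot be told apart.

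Of the 8506 genes tested, 2433 (28.6%) had the interaction called, 1002 (11.8%) above 0 and 1431 (16.8%) below 0. In cellulose, 705 genes (8.29%) were called higher in Δxyr1 and 879 (10.3%) lower. The counts in sophorose were 915 (10.8%) higher and 550 (6.47%) lower. Opposite strain effects were found for 216 genes (2.54%). Of these, 97 (1.14%) were higher in Δxyr1 in cellulose and lower in sophorose, and 119 (1.4%) were lower in cellulose and higher in sophorose. In most of them the 2 strains did not overlap in either carbon source, which held for 90 of the 97 and 95 of the 119, beside 773 genes (9.09%) and 645 genes (7.58%) of all tested. Both strain effects were called from these same libraries, so the high share follows largely from the selection and adds no further evidence. The remaining genes with the interaction called had 1 strain effect called (810 in cellulose and 649 in sophorose), both called in 1 direction (87), or neither called (671). The median interaction of all genes was −0.10.

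**Figure D1:**
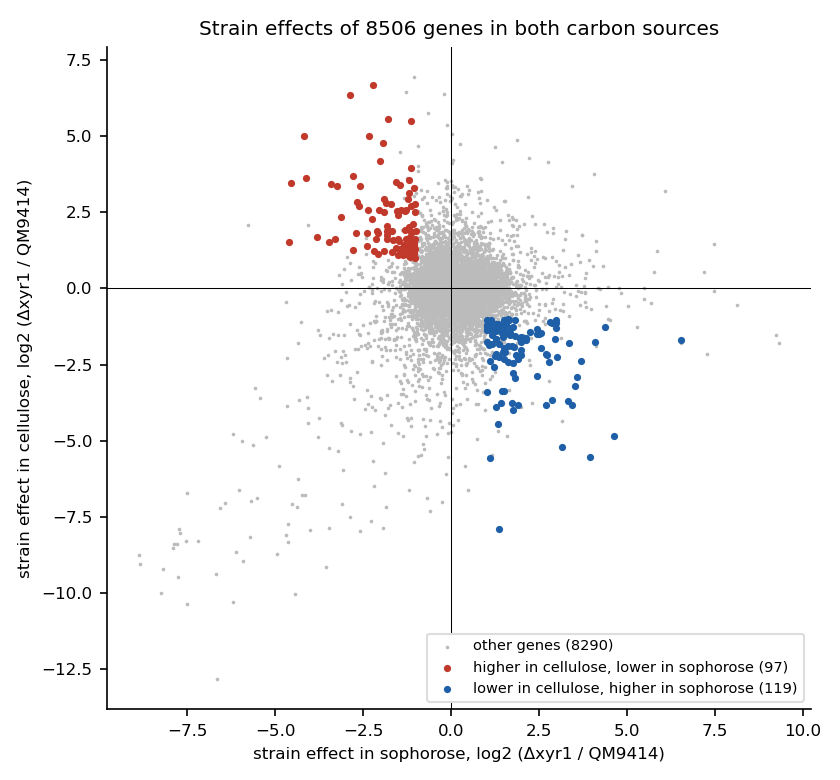
Strain effect (log2, Δxyr1 over QM9414) in cellulose on the vertical axis and in sophorose on the horizontal axis, 1 point per gene for 8506 genes. The 97 genes higher in cellulose and lower in sophorose (red) fill the upper left, the 119 genes lower in cellulose and higher in sophorose (blue) the lower right, and a tail of genes at the lower left was lower in Δxyr1 on both carbon sources.

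The counts of opposite genes stayed within 1.5 times of those above with RLE factors (100 and 114) or upper-quartile factors (91 and 115) in place of TMM, and moved further without scaling factors or without the fold threshold, where 460 and 412 genes were opposite. With each library left out in turn they lay between 84 and 114 for the first class and between 93 and 133 for the second, and 59 of the 97 and 54 of the 119 genes were called opposite every time. Without the 2 libraries that stood apart, 88 and 88 genes were called, of which 76 and 75 were among those above. Without scaling factors the median interaction of all genes was 0.49 in place of −0.10, and 78.9% of the genes called were above 0 in place of 41.2%. The 2 classes then held 208 and 53 genes, and 97 of the 97 and 52 of the 119 were among them. Medians of gene lists are therefore given beside that of all genes.

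The levels in glucose were not used to select the genes. In the glucose libraries, the median gene of the class that was higher in cellulose was at 3.06 CPM in Δxyr1 and 3.00 CPM in QM9414. For the class that was lower in cellulose the medians in glucose were 26.9 CPM in Δxyr1 and 18.3 CPM in QM9414. The definition of each class sets which groups can hold the highest mean. Within the compared cultures, the first class reached its highest mean in Δxyr1 cellulose for 47 genes and in QM9414 sophorose for 50, at medians of 21.2 and 24.3 CPM. The second class was highest in QM9414 cellulose for 60 genes and in Δxyr1 sophorose for 59, at medians of 36.9 and 36.3 CPM. Between the strains in glucose, 15 of the 216 genes (6.94%) were called, beside 221 of all tested (2.6%), which were 160 higher (1.88%) and 61 lower (0.717%). The 15 became 9 without QM9414 sophorose replicate 1, and lay between 9 and 18 with each library left out. Counted by library, the genes of the first class were most often highest in replicate 1 of Δxyr1 cellulose (52.6%), replicate 3 of QM9414 cellulose (37.1%), replicate 1 of Δxyr1 sophorose (52.6%) and replicate 1 of QM9414 sophorose (50.5%), each within its group. For the second class these were replicate 3 of Δxyr1 cellulose (47.9%), replicate 1 of QM9414 cellulose (46.2%), replicate 3 of Δxyr1 sophorose (45.4%) and replicate 3 of QM9414 sophorose (43.7%).

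A flavoprotein monooxygenase and a catechol dioxygenase stood among the described genes with the largest interaction that were higher in Δxyr1 in cellulose and lower in sophorose, although the oxidoreductase list that holds both had more interactions below 0 (149) than above 0 (41). The flavoprotein monooxygenase ID4146, of a family that hydroxylates small molecules with the help of a flavin, had 115, 184 and 131 CPM in the Δxyr1 cellulose libraries against 14.9, 14.1 and 12.6 CPM in QM9414. In sophorose it had 24.9, 33.4 and 15 CPM in Δxyr1 against 164, 106 and 170.2 CPM in QM9414. The strains were apart in both carbon sources, which the rule for naming opposite genes required. The Δxyr1 level in cellulose lay near the QM9414 level in sophorose. Its strain effect was 3.37 (standard error 0.352) in cellulose and −2.59 (standard error 0.339) in sophorose, and the interaction was 5.95 (standard error 0.488, adjusted p = 3.96e-07). A catechol dioxygenase, ID62165, which opens the ring of catechols, followed the same course. It had 65.2, 109.8 and 80.7 CPM in Δxyr1 and 6.41, 8.29 and 7.87 CPM in QM9414 in cellulose, and 37.4, 35.1 and 17.7 CPM in Δxyr1 and 109, 63.6 and 93.1 CPM in QM9414 in sophorose, with an interaction of 5.06 (standard error 0.477, adjusted p = 1.42e-06). Both enzymes were at 1.16 CPM or less in all 5 glucose libraries.

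Kynureninase ID44628, which cleaves kynurenine in the breakdown of tryptophan, was at 199, 261 and 235 CPM in Δxyr1 and 20.1, 22.7 and 23.7 CPM in QM9414 in cellulose. Its levels in sophorose were 34.5, 36.8 and 24.1 CPM in Δxyr1 and 99.4, 66.1 and 97.3 CPM in QM9414. The strain effect was 3.39 (standard error 0.2) in cellulose and −1.46 (standard error 0.187) in sophorose, with an interaction of 4.85 (standard error 0.272, adjusted p = 1.25e-08). An indoleamine 2,3-dioxygenase-like protein, ID123550, of the family that opens the indole ring of tryptophan at the start of that route, had 369.6, 496 and 437 CPM in Δxyr1 and 25, 23.7 and 32.2 CPM in QM9414 in cellulose. In sophorose it stood at 8.95, 8.66 and 6.92 CPM in Δxyr1 and 16.1, 15.7 and 15.3 CPM in QM9414. The interaction of this gene was 4.95 (standard error 0.321, adjusted p = 3.93e-08), but its strain effect in sophorose, −0.94 (standard error 0.226), missed the fold threshold, so it was not opposite. Without Δxyr1 sophorose replicate 1 that effect was −1.01 and passed. A later enzyme of the route, the 3-hydroxyanthranilic acid dioxygenase ID71039, which was picked after its values were seen, went the other way. It had 10.6, 9.82 and 12.3 CPM in Δxyr1 and 21.8, 19.1 and 28.8 CPM in QM9414 in cellulose, against 20.7, 57.9 and 62.8 CPM in Δxyr1 and 5.73, 6.84 and 7.61 CPM in QM9414 in sophorose, with an interaction of −3.90 (standard error 0.473, adjusted p = 1.41e-05). Its strain effect in cellulose, −1.09 (standard error 0.329), was not called without QM9414 cellulose replicate 3 (−0.91) or Δxyr1 cellulose replicate 2 (−1.02).

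AAA ATPases, machines that remodel proteins with the energy of ATP, and ABC transporters formed the list with the largest share of opposite genes. Of 81 members tested, 7 were higher in cellulose and lower in sophorose and 3 the reverse, together 12.3% beside 2.54% of all genes. These counts lay between 5 and 8 and between 2 and 4 with each library left out, and 4 of the 7 and 2 of the 3 were opposite every time. Over the whole list 14 interactions were above 0 and 17 below 0, with a median of −0.04, against 26, 6 and 0.55 without scaling factors. The 17 became 9 without Δxyr1 sophorose replicate 3, and without both libraries that stood apart 16 were above 0 and 11 below 0. The AAA ATPase ID66551, of the first class, had 10.1, 2.95 and 7.74 CPM in the Δxyr1 cellulose libraries against 0.795, 0.429 and 0.676 CPM in QM9414, and 2.07, 2.37 and 3.17 CPM in the Δxyr1 sophorose libraries against 42.1, 14.9 and 15.8 CPM in QM9414. QM9414 sophorose replicate 1 was far above its fellows, and the interaction was 6.62 (standard error 0.721, adjusted p = 5.18e-06). That the strains did not overlap follows from the rule for naming opposite genes. A further AAA+-type ATPase, ID75247, was raised in the Δxyr1 cellulose libraries to 24.1, 1.51 and 8.15 CPM, against 0.398, 0.286 and 0.738 CPM in QM9414, and was at 0.551, 0.834 and 0.072 CPM in Δxyr1 and 1.41, 1.15 and 1.56 CPM in QM9414 in sophorose. The spread within Δxyr1 cellulose was wide here, and the interaction was 5.95 (standard error 1.19, adjusted p = 9.85e-04) with no call in sophorose. ID58366 of the same family was almost silent outside QM9414 in sophorose. It had 0.119, 0.206 and 0.244 CPM in Δxyr1 and 0.0497, 0 and 0.0615 CPM in QM9414 in cellulose, where 1 or no read was counted in each QM9414 library, and 0.275, 0.257 and 0.36 CPM in Δxyr1 against 15, 16.7 and 18 CPM in QM9414 in sophorose. Its interaction was 7.87 (standard error 1.31, adjusted p = 2.16e-04), and only the strain effect in sophorose, −5.77 (standard error 0.441), was called. When the 12 compared libraries alone were fitted, the strain effect in cellulose, 2.14 (edgeR adjusted p = 0.0484), was called as well, which would make the gene opposite.

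On the other side of the same list, the PDR-type ABC transporter ID76682, of a family of drug exporters, had 1.07, 1.51 and 0.57 CPM in Δxyr1 and 20.6, 34 and 94.7 CPM in QM9414 in cellulose. In sophorose it had 3.92, 9.75 and 44.7 CPM in Δxyr1 and 1.88, 0.447 and 1.5 CPM in QM9414. Replicate 3 was the highest in both groups with a high level, and the strains did not overlap, which the naming rule required. The strain effect was −5.53 (standard error 0.922) in cellulose and 3.94 (standard error 0.867) in sophorose, and the interaction was −9.47 (standard error 1.26, adjusted p = 3.28e-05). Without Δxyr1 sophorose replicate 3 the effect in sophorose was 2.43 and the interaction −7.91, and both were called.

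Proteins with ankyrin repeats or a HET domain, the domain of proteins that trigger the death of fused cells when unlike hyphae meet, were shifted as a group. Of 94 members tested, 41 (43.6%) had the interaction above 0 and 4 (4.26%) below 0, beside 11.8% and 16.8% of all genes, and the median was 0.88 beside −0.10. The strain effect in cellulose was called higher for 28 and lower for 2, and in sophorose higher for 1 and lower for 17. The shift against the median of all genes was between 0.97 and 0.99 under all scalings tried, and 0.88 without the 2 libraries that stood apart. Of the members, 5 were opposite (5.32% beside 2.54% of all genes), and all 5 were higher in Δxyr1 in cellulose. That count lay between 2 (without Δxyr1 cellulose replicate 1) and 7 with each library left out, and 2 of the 5 were opposite every time. The ankyrin protein ID120927 had 12.9, 7.56 and 5.95 CPM in Δxyr1 and 1.54, 1.57 and 1.29 CPM in QM9414 in cellulose, and 7.3, 4.3 and 3.89 CPM in Δxyr1 and 14.8, 13.5 and 13.1 CPM in QM9414 in sophorose, with an interaction of 3.97 (standard error 0.448, adjusted p = 6.96e-06). For ID104372, an ankyrin protein with a transmembrane segment, the interaction was 2.76 (standard error 0.324, adjusted p = 1.03e-05), from 1.44 (standard error 0.246) in cellulose and −1.32 (standard error 0.211) in sophorose. Among the HET proteins, ID103189 and ID109101 were called in cellulose alone. ID103189 had 22.3, 14.1 and 16.1 CPM in Δxyr1 against 0.497, 0.429 and 0.984 CPM in QM9414 in cellulose, and overlapped between the strains in sophorose with 6.47, 3.53 and 3.1 CPM in Δxyr1 and 4.24, 3.51 and 3.29 CPM in QM9414, with an interaction of 4.50 (standard error 0.463, adjusted p = 3.17e-06). ID109101 had 20, 1.99 and 8.15 CPM in Δxyr1 against 0.447, 0.0715 and 0.553 CPM in QM9414 in cellulose, with replicate 1 far above replicate 2 in Δxyr1, and an interaction of 5.62 (standard error 0.885, adjusted p = 1.39e-04).

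Of 526 transcription regulators, 82 (15.6%) had the interaction above 0 and 41 (7.79%) below 0, beside 11.8% and 16.8% of all genes, with a median of 0.28 beside −0.10. Without scaling factors 213 were above 0 and 8 below 0, with a median of 0.87 where all genes had 0.49. Opposite effects were found for 8 that were higher in cellulose and 3 that were lower, together 2.09% of the list beside 2.54% of all genes. Leaving out each library in turn gave between 4 (without QM9414 sophorose replicate 1) and 8 and between 1 (without QM9414 cellulose replicate 3) and 4, and 3 of the 8 and 0 of the 3 were opposite every time. The zinc finger protein ID22590 had 79.1, 41.9 and 79.6 CPM in the Δxyr1 cellulose libraries against 4.47, 5.5 and 2.89 CPM in QM9414, and 15.8, 15.1 and 15 CPM in the Δxyr1 sophorose libraries against 33.7, 30.7 and 37.3 CPM in QM9414. All 4 groups were apart, and its interaction was 5.11 (standard error 0.349, adjusted p = 5.88e-08). The C2H2 regulator ID120363 had an interaction of 4.34 (standard error 0.549, adjusted p = 2.06e-05), while its strain effect in sophorose, −1.04 (standard error 0.353), was not called without QM9414 sophorose replicate 1 (−1.02) or 3 (−1.0), or Δxyr1 sophorose replicate 2 (−1.01) or 3 (−0.82). Kinases and phosphatases gave 38 (13.1%) above 0 and 31 (10.7%) below 0 of 289 members, a median of 0.08, and 4 opposite genes (1.38% beside 2.54% of all genes). Without scaling factors 90 were above 0 and 13 below 0. The protein kinase ID105820 was at 20.8, 2.2 and 10.2 CPM in Δxyr1 against 0.199, 0.143 and 0.307 CPM in QM9414 in cellulose, and at 1.45, 1.67 and 0.937 CPM in Δxyr1 against 4.95, 4.02 and 5.15 CPM in QM9414 in sophorose. Its interaction was 7.36 (standard error 0.914, adjusted p = 1.72e-05), and without Δxyr1 sophorose replicate 3 its strain effect in sophorose was −1.60 in place of −1.79 and was not called. Inorganic pyrophosphatase ID60616, which splits the pyrophosphate left by biosynthesis, went the other way with 102, 49.9 and 122 CPM in Δxyr1 and 327, 202 and 154 CPM in QM9414 in cellulose, and 24.7, 45 and 113 CPM in Δxyr1 and 8.32, 10.3 and 14.9 CPM in QM9414 in sophorose. Here the interaction was −3.76 (standard error 0.663, adjusted p = 3.56e-04), but the strain effect in cellulose, −1.32 (standard error 0.457), was not called without QM9414 cellulose replicate 1 (−0.96) or Δxyr1 cellulose replicate 1 (−1.41) or 2 (−1.02).

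The phosphatidylinositol polyphosphate phosphatase ID80273, which acts on membrane signalling lipids, had 541, 506 and 499 CPM in Δxyr1 against 47.6, 51.8 and 53.4 CPM in QM9414 in cellulose, and 34.1, 27.3 and 32.3 CPM in Δxyr1 against 69.9, 62 and 55.8 CPM in QM9414 in sophorose. The 2 strains were apart in both carbon sources and in different directions. Its interaction was 4.34 (standard error 0.171, adjusted p = 6.62e-10), and its strain effect in sophorose, −1.0 (standard error 0.118), lay just under the fold threshold. With a single library left out that effect was called in 4 of 12 fits, at −1.01 without QM9414 sophorose replicate 2, −1.08 without replicate 3, −1.07 without Δxyr1 sophorose replicate 1 and −1.04 without replicate 3. It was called too with RLE factors (−1.02), DESeq2 (−1.02), no scaling factors (−1.40), no filter, the filter of 1 CPM, 12 libraries only or without both libraries that stood apart (−1.04), and not with upper-quartile factors (−0.94) or the replicate block. Under those settings that called it ID80273 was opposite.

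Other described genes of the class that was higher in cellulose belonged to varied functions. VPS1 (ID112516), in yeast a dynamin-like GTPase of vacuolar protein sorting, had 27, 15.6 and 26.6 CPM in Δxyr1 and 3.93, 3.64 and 3.94 CPM in QM9414 in cellulose, and 13.3, 11.4 and 8.72 CPM in Δxyr1 and 119.6, 28.7 and 24.3 CPM in QM9414 in sophorose. QM9414 sophorose replicate 1 was again far above its fellows, and the interaction was 4.94 (standard error 0.671, adjusted p = 3.82e-05). The small secreted cysteine-rich protein (SSCRP) ID72183 had 14.1, 17.2 and 16.9 CPM in Δxyr1 against 0.994, 1.29 and 0.369 CPM in QM9414 in cellulose, and 1.17, 1.28 and 0.648 CPM in Δxyr1 against 3.77, 4.6 and 4.25 CPM in QM9414 in sophorose, with an interaction of 6.20 (standard error 0.551, adjusted p = 8.49e-07). The GH95 α-L-fucosidase ID5807, which releases fucose from glycans, gave 30.5, 30.6 and 27.8 CPM in Δxyr1 and 3.98, 4.22 and 4.55 CPM in QM9414 in cellulose, and 1.86, 2.44 and 1.8 CPM in Δxyr1 and 9.19, 5.81 and 7.31 CPM in QM9414 in sophorose. Its interaction was 4.66 (standard error 0.266, adjusted p = 1.25e-08). For the GH24 lysozyme ID109278, an enzyme of a family that cleaves bacterial cell walls, the interaction was 4.46 (standard error 0.338, adjusted p = 1.73e-07), from 2.76 (standard error 0.222) in cellulose and −1.70 (standard error 0.259) in sophorose. The L-carnitine dehydratase/α-methylacyl-CoA racemase ID78462, of a family that acts on CoA thioesters, had an interaction of 4.60 (standard error 0.423, adjusted p = 1.13e-06), from 2.57 (standard error 0.302) in cellulose and −2.04 (standard error 0.296) in sophorose.

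A protein described as ribosomal protein L29, ID103060, was the single opposite gene of the ribosomal list. It was at 2.73, 1.51 and 2.44 CPM in Δxyr1 against 0.845, 0.429 and 0.799 CPM in QM9414 in cellulose, and at 3.03, 1.41 and 2.38 CPM in Δxyr1 against 23.9, 21.3 and 21.3 CPM in QM9414 in sophorose, with an interaction of 4.90 (standard error 0.514, adjusted p = 3.79e-06). The HSP70 protein ID121839, a chaperone, had 216, 155 and 173 CPM in Δxyr1 against 55.4, 64.9 and 74.5 CPM in QM9414 in cellulose, and 194, 169 and 110.4 CPM in Δxyr1 against 319, 335 and 331 CPM in QM9414 in sophorose. Its interaction was 2.54 (standard error 0.265, adjusted p = 3.62e-06), and without Δxyr1 sophorose replicate 3 the strain effect in sophorose was −0.87 in place of −1.06 and missed the fold threshold. Among the genes with no known function, ID59065 had 14.2, 13.6 and 17.2 CPM in Δxyr1 against 0.199, 0.143 and 0.0615 CPM in QM9414 in cellulose, and 1.45, 1.73 and 0.792 CPM in Δxyr1 against 13.3, 2.75 and 2.87 CPM in QM9414 in sophorose. The unknown genes ID108232 and ID121111 had interactions of 7.73 and 7.34 beside 8.88 for ID59065. In sophorose ID108232 had 0.757, 1.28 and 1.73 CPM in Δxyr1 against 17.9, 23.8 and 23.8 CPM in QM9414, and in cellulose 2.02, 0.756 and 0.652 CPM in Δxyr1 against 0.199, 0 and 0 CPM in QM9414. Without QM9414 cellulose replicate 1 the interaction of ID108232 was 11.03. In all, 38 of the 97 genes were of the unknown list, which held 2527 of the 8506 genes tested.

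**Figure D2:**
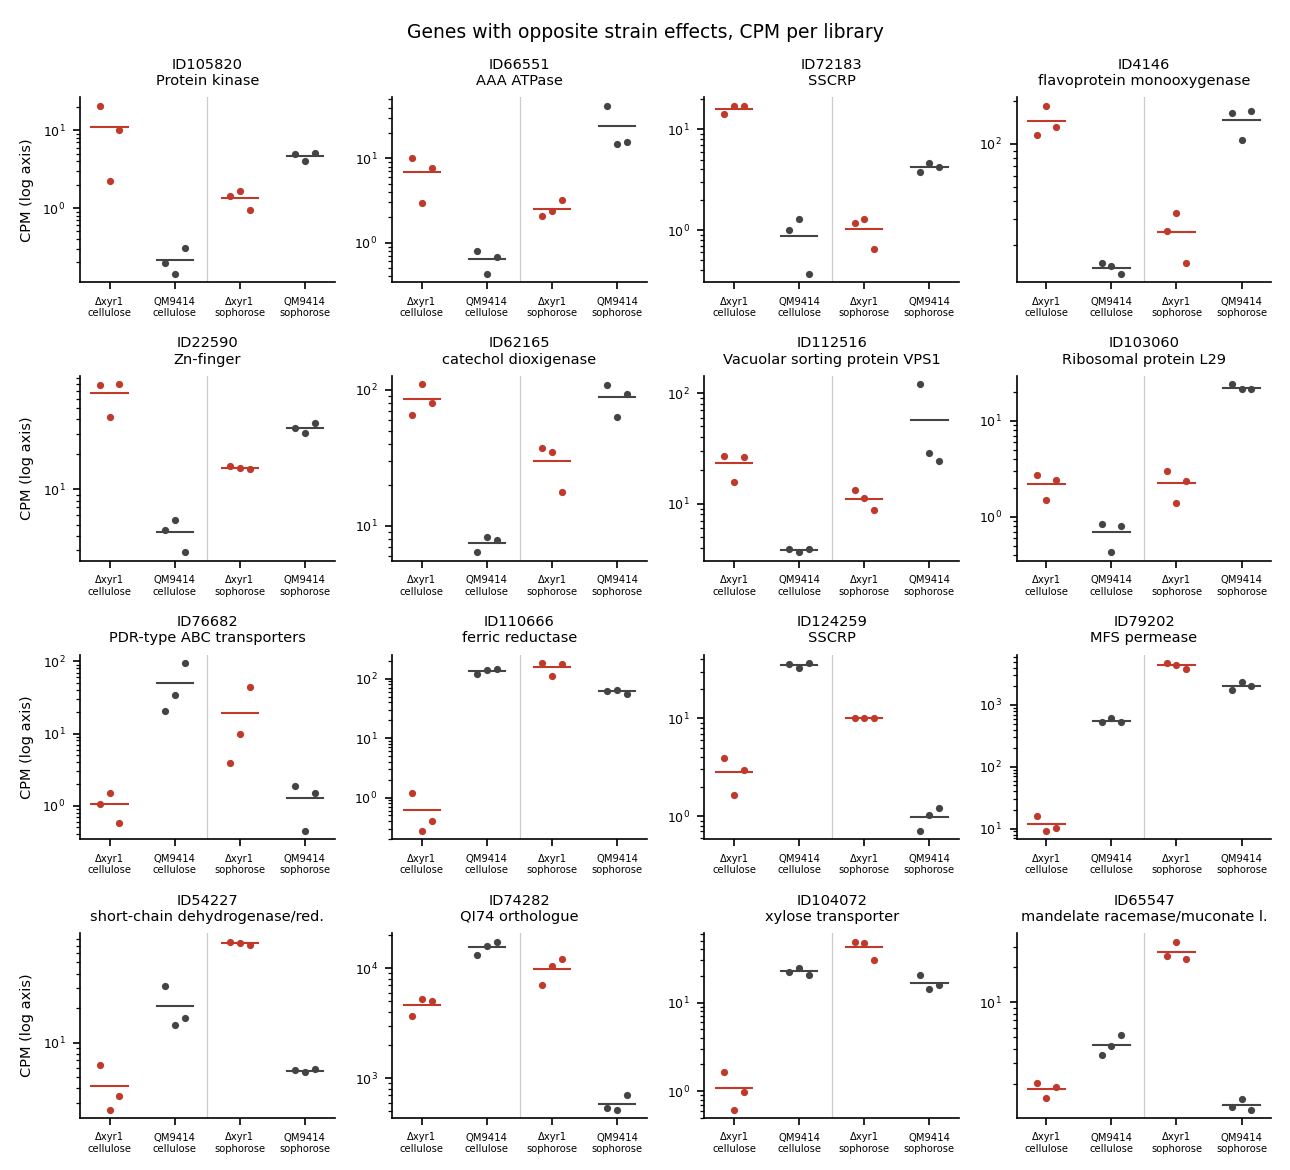
CPM on log axes in each of the 3 libraries (points) and their mean (line) for 16 described genes with opposite strain effects, Δxyr1 in red and QM9414 in grey, with cellulose left and sophorose right of the vertical line. In the upper 8 panels Δxyr1 lies above QM9414 in cellulose and below it in sophorose, and in the lower 8 panels the reverse holds. The scatter of AAA ATPase ID66551 and VPS1 in QM9414 sophorose comes from replicate 1, at 42.1 CPM for ID66551 and 119.6 CPM for ID112516.

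Transporters were among the described genes with the largest interaction in the class that was lower in Δxyr1 in cellulose and higher in sophorose. The MFS permease ID79202, described as associated with cellulose signalling, had 16, 9.2 and 10.1 CPM in Δxyr1 and 523, 613 and 537 CPM in QM9414 in cellulose. In sophorose it was the more abundant in the mutant, with 4759.5, 4428 and 3853 CPM in Δxyr1 against 1747, 2326 and 1989 CPM in QM9414. The strain effect was −5.57 (standard error 0.371) in cellulose and 1.10 (standard error 0.306) in sophorose, and the interaction was −6.68 (standard error 0.471, adjusted p = 8.13e-08). Xylose transporter ID104072 had 1.66, 0.618 and 0.978 CPM in Δxyr1 against 22.4, 24.8 and 20.3 CPM in QM9414 in cellulose, and 48.9, 47.2 and 30.5 CPM in Δxyr1 against 20.3, 14.4 and 15.7 CPM in QM9414 in sophorose. Its interaction was −5.79 (standard error 0.394, adjusted p = 5.72e-08). Of 203 MFS and sugar permeases tested, 27 (13.3%) had the interaction above 0 and 57 (28.1%) below 0, beside 11.8% and 16.8% of all genes, with a median of −0.33. Opposite effects were found for 6 (2.96% beside 2.54% of all genes), all in this class. Without scaling factors 48 were above 0 and 30 below 0, with a median of 0.23 where all genes had 0.49. The ferric reductase ID110666, which reduces iron before its uptake, was near 0 in Δxyr1 in cellulose, with 1.19, 0.275 and 0.407 CPM against 119, 137 and 147 CPM in QM9414. In sophorose it had 183, 110.0 and 175 CPM in Δxyr1 against 61.5, 65.1 and 55.9 CPM in QM9414, and the interaction was −9.26 (standard error 0.435, adjusted p = 4.00e-09). Without scaling factors the strain effects in sophorose of ID79202 (0.75), ID110666 (0.94) and of carbonic anhydrase ID111912 (0.98) stayed above 0 and were not called.

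Oxidoreductases gave 14 of the 119 genes, of which 8 were opposite with each library left out, and 4.15% of the list was opposite in either direction beside 2.54% of all genes. Of 458 members tested, 149 (32.5%) had the interaction below 0 and 41 (8.95%) above 0, beside 16.8% and 11.8% of all genes, with a median of −0.71 beside −0.10. In cellulose 29 were called higher in Δxyr1 and 126 lower, and in sophorose 59 higher and 45 lower. Without the 2 libraries that stood apart, 130 interactions were below 0 and 45 above 0, with a median of −0.48 where all genes had −0.01. The short-chain dehydrogenase/reductase ID54227 had 6.4, 2.61 and 3.42 CPM in Δxyr1 against 31.4, 14.4 and 16.2 CPM in QM9414 in cellulose, and 75.8, 73.1 and 71.5 CPM in Δxyr1 against 5.73, 5.49 and 5.87 CPM in QM9414 in sophorose. With an interaction of −6.06 (standard error 0.498, adjusted p = 4.01e-07), it was also abundant in glucose, at 75.1, 138 and 114 CPM in Δxyr1 and 36.2 and 60.8 CPM in QM9414. A second member of that family, ID106164, was lower in Δxyr1 in cellulose alone. It had 0.474, 0.206 and 0.163 CPM in Δxyr1 against 31.9, 39.7 and 30.9 CPM in QM9414 in cellulose and overlapped in sophorose, with 136, 108 and 84.9 CPM in Δxyr1 and 126, 144 and 125 CPM in QM9414, and its interaction was −6.74 (standard error 0.596, adjusted p = 8.05e-07).

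Secreted and cell wall proteins of this class included QI74 (ID74282), the orthologue of a cell wall protein of *Trichoderma harzianum*. It had 3661, 5257 and 4995 CPM in Δxyr1 against 13113, 16038 and 17446 CPM in QM9414 in cellulose, and 7058, 10565 and 12162 CPM in Δxyr1 against 539, 518 and 703 CPM in QM9414 in sophorose. Its interaction was −5.82 (standard error 0.41, adjusted p = 8.13e-08). Of 123 hydrophobins and small secreted proteins, 39 (31.7%) had the interaction below 0 and 10 (8.13%) above 0, beside 16.8% and 11.8% of all genes. The median was −0.39 beside −0.10 of all genes, and 0.21 without scaling factors, where all genes had 0.49. Without the 2 libraries that stood apart, 33 were below 0 and 11 above 0, with a median of −0.24. In the main fit 8 were opposite in this class against 3 in the other, together 8.94% beside 2.54% of all genes. Leaving out each library in turn gave between 5 (without QM9414 sophorose replicate 1) and 10 and between 1 (without Δxyr1 sophorose replicate 1) and 3, and 5 of the 8 and 1 of the 3 were opposite every time. The SSCRP ID124259 was at 3.91, 1.65 and 2.93 CPM in Δxyr1 against 36.3, 32.7 and 36.8 CPM in QM9414 in cellulose, and at 9.98, 10.1 and 10.2 CPM in Δxyr1 against 0.707, 1.02 and 1.2 CPM in QM9414 in sophorose, with an interaction of −7.02 (standard error 0.446, adjusted p = 3.12e-08). For the SSCRP ID108663 the interaction was −5.49 (standard error 0.385, adjusted p = 7.68e-08), from −3.75 (standard error 0.295) in cellulose and 1.75 (standard error 0.246) in sophorose.

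Metabolic enzymes were also found in this class. The mandelate racemase/muconate lactonase-like protein ID65547, of a family that acts on carboxylic acids, had 2.02, 1.51 and 1.87 CPM in Δxyr1 against 3.53, 4.22 and 5.23 CPM in QM9414 in cellulose, and 25, 33.3 and 23.8 CPM in Δxyr1 against 1.26, 1.47 and 1.2 CPM in QM9414 in sophorose. Dihydrodipicolinate synthase-like ID65882, named for a step of lysine synthesis in bacteria, was at 2.73, 1.1 and 2.69 CPM in Δxyr1 against 9.89, 11.7 and 12 CPM in QM9414 in cellulose, and at 35.9, 38.8 and 26.4 CPM in Δxyr1 against 3.69, 5.81 and 5.15 CPM in QM9414 in sophorose. In both enzymes the Δxyr1 sophorose libraries were the highest. Their interactions were −5.65 (standard error 0.305, adjusted p = 9.81e-09) and −5.18 (standard error 0.388, adjusted p = 1.50e-07). GH105 protein ID57179, of a family that removes unsaturated sugars from pectin fragments, was at most 1.81 CPM outside Δxyr1 in sophorose, where it reached 11.1, 14.4 and 6.92 CPM, and had an interaction of −5.26 (standard error 0.635, adjusted p = 4.09e-05). Carbonic anhydrase ID111912, which hydrates carbon dioxide, was highest in QM9414 cellulose, at 90.2, 100.04 and 102 CPM against 7, 6.8 and 5.78 CPM in Δxyr1. In sophorose it had 19, 18.6 and 10.2 CPM in Δxyr1 against 6.2, 6.32 and 7.19 CPM in QM9414, with an interaction of −5.17 (standard error 0.455, adjusted p = 7.47e-07). Phospholipase A2 ID3568 had an interaction of −2.88 (standard error 0.585, adjusted p = 0.00109), and its strain effect in cellulose, −1.05 (standard error 0.392), was at the edge of the thresholds. With each library left out in turn it lay between −1.29 and −0.65 and was called in 2 of the 12 fits, those without QM9414 cellulose replicate 3 (−1.29) or Δxyr1 sophorose replicate 1 (−1.05).

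Of the unknown proteins of this class, ID3363, which is described with several transmembrane segments, had 2.73, 1.37 and 1.79 CPM in Δxyr1 against 31.8, 27.2 and 22.4 CPM in QM9414 in cellulose. Its levels in sophorose were 32.7, 23 and 19.3 CPM in Δxyr1 against 3.06, 1.98 and 1.98 CPM in QM9414, and the interaction was −7.27 (standard error 0.615, adjusted p = 5.08e-07). ID102966 reached 1347, 1611 and 1194 CPM in the Δxyr1 sophorose libraries against 361, 430.3 and 321 CPM in QM9414, and had 15.4, 9.96 and 10.5 CPM in Δxyr1 against 166, 148 and 192 CPM in QM9414 in cellulose. Its interaction was −5.72, and that of ID66788 was −5.18. The unknown list gave 29 of the 119 genes and held 2527 of the 8506 genes tested. Over both classes 2.65% of that list was opposite, beside 2.54% of all genes.

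Chaperones, which fold proteins and protect them under stress, gave 26 of 91 members (28.6%) with the interaction below 0 and 4 (4.4%) above 0, beside 16.8% and 11.8% of all genes. The median was −0.45 beside −0.10, and 0.15 without scaling factors, where all genes had 0.49. In cellulose 3 were called higher in Δxyr1 and 8 lower, and in sophorose 23 higher and 3 lower. Without the 2 libraries that stood apart, 22 interactions were below 0 and 5 above 0, with a median of −0.38 where all genes had −0.01. Summed over the list, the Δxyr1 sophorose libraries were at 23702, 59567 and 102417 CPM from lowest to highest. The QM9414 sophorose libraries lay between 20854 and 26347 CPM, so the lowest Δxyr1 library was within their range. The exchange factor FES1 (ID119924), which resets Hsp70 after each cycle, had 34.9, 29.3 and 54.2 CPM in Δxyr1 against 137, 90.5 and 184 CPM in QM9414 in cellulose, and 52.1, 216 and 307 CPM in Δxyr1 against 15.3, 15.3 and 26 CPM in QM9414 in sophorose. Its interaction was −5.14 (standard error 0.848, adjusted p = 2.08e-04), but the strain effect in cellulose, −1.80 (standard error 0.583), was not called without QM9414 cellulose replicate 3 (−1.53) or Δxyr1 cellulose replicate 1 (−1.72) or 2 (−1.62). The 4 heat shock proteins that follow were picked after their values were seen. The small heat shock protein of the Hsp26/Hsp42 type ID122363 had 33, 14.8 and 60.8 CPM in Δxyr1 against 985, 472 and 1633 CPM in QM9414 in cellulose. In sophorose it had 36.2, 1547 and 3215 CPM in Δxyr1 against 56.1, 59.5 and 77.1 CPM in QM9414. Replicate 1 of Δxyr1 in sophorose thus lay below all 3 QM9414 libraries, while replicates 2 and 3 lay far above them, and the interaction was −9.47 (standard error 1.72, adjusted p = 4.64e-04).

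The second Hsp26/Hsp42 protein, ID46285, had the same spread, with 107, 2979.7 and 5921 CPM in Δxyr1 and 201, 264 and 315 CPM in QM9414 in sophorose, and 52.4, 32.7 and 219 CPM in Δxyr1 and 958, 494 and 1347 CPM in QM9414 in cellulose. Heat shock protein 70 (ID55362) had 2707, 2094 and 4455 CPM in Δxyr1 against 9119, 7685 and 10705 CPM in QM9414 in cellulose, and 5062, 14540.0 and 26819.8 CPM in Δxyr1 against 3738, 4261 and 5080.2 CPM in QM9414 in sophorose. Heat shock protein 90 (ID123114) had an interaction of −3.02 (standard error 0.658, adjusted p = 0.00181), beside −3.40 for ID55362 and −6.73 for ID46285. In sophorose, Δxyr1 replicate 1 lay below every QM9414 library for ID122363 and ID46285 and within the QM9414 range for ID55362 and ID123114. With each library left out, the interaction lay between −10.07 and −8.39 for ID122363, −7.98 and −5.71 for ID46285, −3.82 and −2.68 for ID55362, and −3.44 and −2.32 for ID123114, and was called each time. The strain effect in cellulose was not called for ID46285 without QM9414 cellulose replicate 3 (−2.84) or Δxyr1 cellulose replicate 1 (−2.89) or 2 (−2.78), and for ID55362 without Δxyr1 cellulose replicate 1 (−1.49) or 2 (−1.36). For ID123114 the same held without QM9414 cellulose replicate 1 (−1.33) or 3 (−1.13) or Δxyr1 cellulose replicate 1 (−1.20) or 2 (−1.11). In sophorose the effect of ID46285 was not called without QM9414 sophorose replicate 1 (3.37) or 2 (3.54) or Δxyr1 sophorose replicate 3 (2.56), and that of ID123114 was not called without both libraries that stood apart (1.08).

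**Figure D3:**
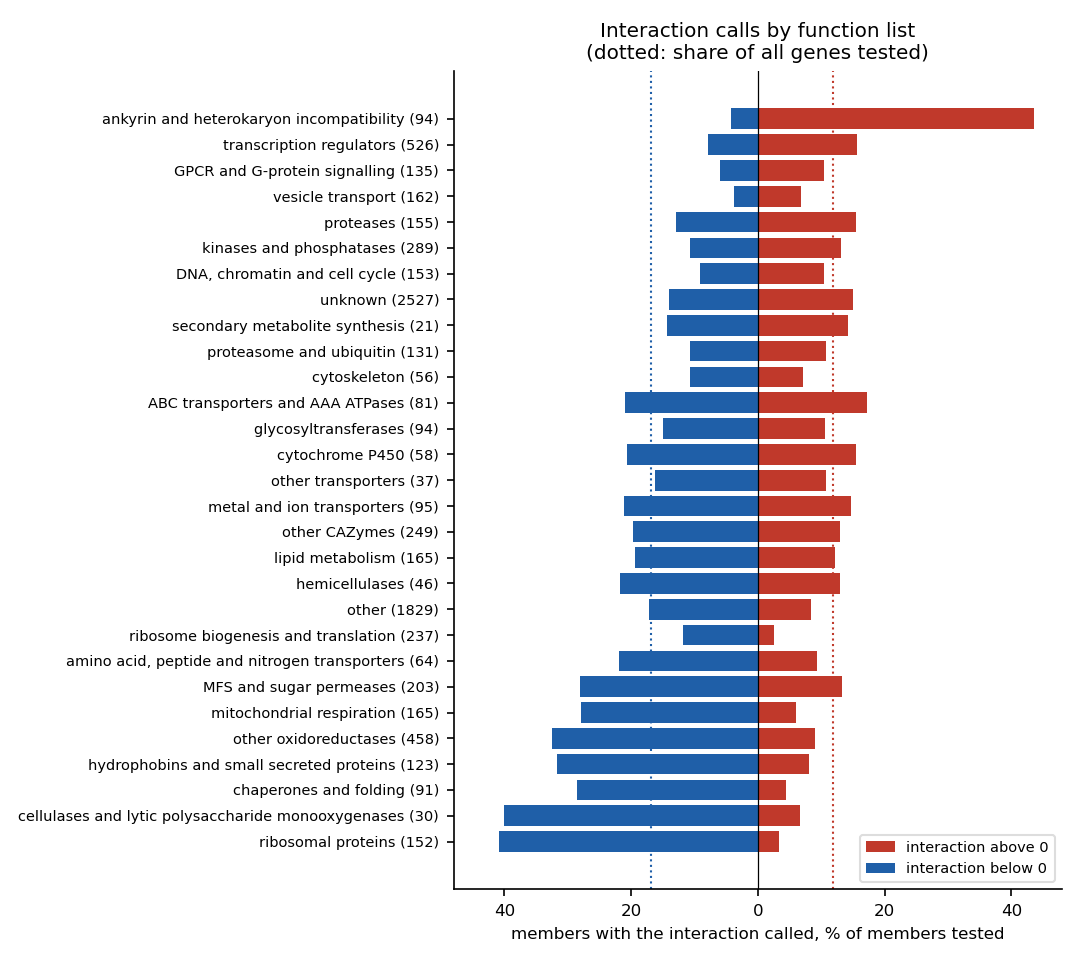
Share of the members tested of each function list (number tested in brackets) with the interaction called above 0 (red, to the right) and below 0 (blue, to the left), with the shares of all genes, 11.8% and 16.8%, as dotted lines. Ankyrin and HET proteins reach 43.6% above 0, and ribosomal proteins and cellulases reach 40.8% and 40% below 0.

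Ribosomal proteins, the protein part of the machine that makes proteins, showed a wide shift with almost no opposite genes. Of 152 members, 62 (40.8%) had the interaction below 0 and 5 (3.29%) above 0, with a median of −0.80 beside −0.10. The strain effect in cellulose was called higher for 3 and lower for 1 and had a median of 0.05. In sophorose it was called higher for 67 and lower for 1 and had a median of 0.90. Summed over the list, the 3 libraries lay between 21776 and 23271 CPM in Δxyr1 cellulose, 20976 and 25340 CPM in QM9414 cellulose, 35140 and 55171 CPM in Δxyr1 sophorose, and 20749 and 24806 CPM in QM9414 sophorose. The 3 Δxyr1 sophorose libraries were thus above all others, with replicate 3 the lowest of them. Against the median of all genes the shift was between −0.75 and −0.69 under all scalings tried, although without scaling factors only 9 members were called below 0 and 9 above 0. Without the 2 libraries that stood apart, 64 were called below 0 and 4 above 0.

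Proteins of mitochondrial respiration and transport were shifted likewise, with 46 of 165 (27.9%) below 0, 10 (6.06%) above 0 and a median of −0.60. The values of all genes were 16.8%, 11.8% and −0.10. In sophorose 30 were called higher in Δxyr1 and 2 lower, and in cellulose 9 were higher and 9 lower. Without the 2 libraries that stood apart, 44 interactions were below 0 and 13 above 0, with a median of −0.55 where all genes had −0.01. Ribosome biogenesis and translation, by contrast, had 28 of 237 (11.8%) below 0 and 6 (2.53%) above 0, with a median of −0.21, and 14.3% of its members called in either direction beside 28.6% of all genes. Vesicle transport had the smallest share among the lists with 20 or more members, at 17 of 162 (10.5%). Without scaling factors, oxidoreductases had 79 members above 0 and 73 below 0, mitochondrial proteins 22 and 14, and ribosome biogenesis 36 and 4 with a median of 0.38, while the median of all genes was 0.49. The lists were chosen with results of these data known, and none was tested against other lists.

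**Figure D4:**
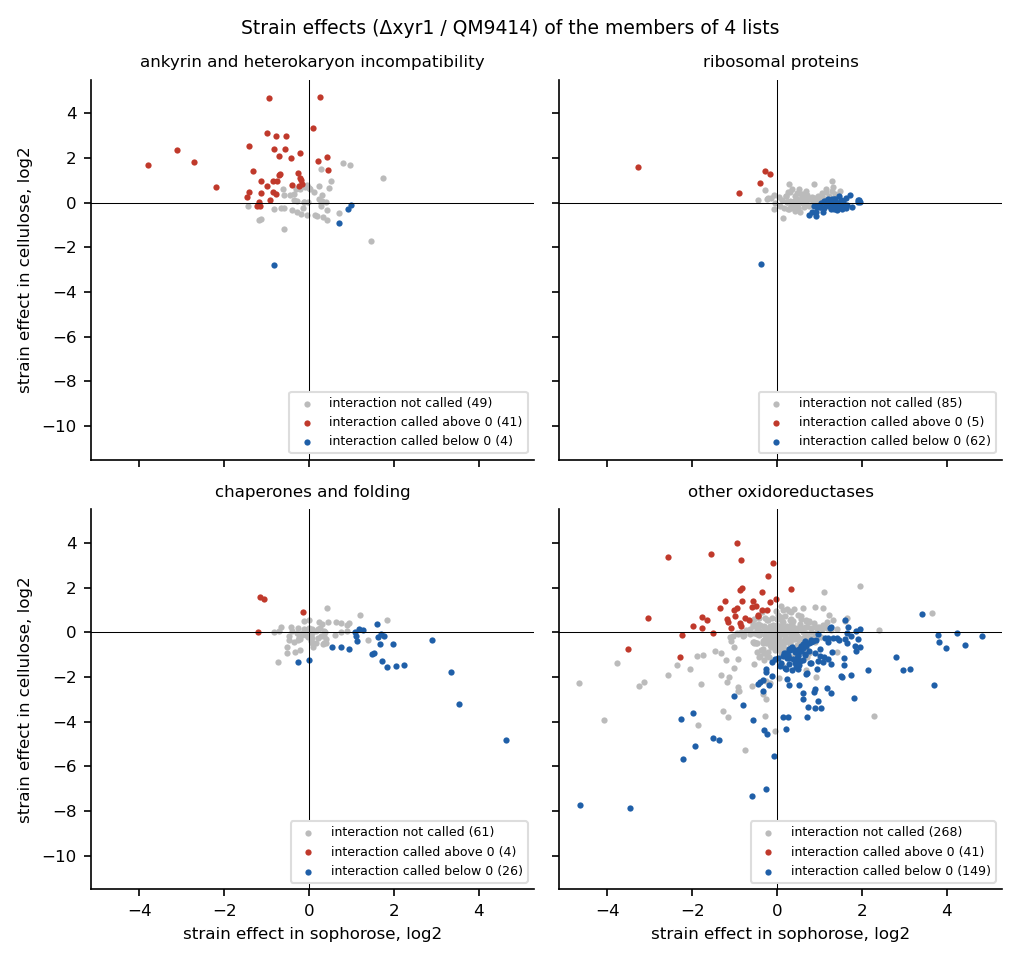
Strain effects (log2, Δxyr1 over QM9414) in cellulose (vertical) and sophorose (horizontal) of the members of 4 function lists, coloured by the interaction call (red above 0, blue below 0, grey not called). Ribosomal proteins spread along the sophorose axis near 0 in cellulose, ankyrin and HET proteins lean to the upper left, and the other 2 lists to the lower right.

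Cellulases and lytic polysaccharide monooxygenases, the main targets of XYR1, held no opposite gene. Of 30 members, 19 were lower in Δxyr1 in cellulose and 16 in sophorose, and 12 (40%) had the interaction below 0 against 2 (6.67%) above 0, with a median of −1.15. In 16 of the 30 both strain effects were called in 1 direction. The intracellular β-glucosidase *cel1a* (ID120749), which splits cellobiose into glucose, had 14.3, 6.04 and 6.6 CPM in Δxyr1 against 954, 1119 and 1093 CPM in QM9414 in cellulose, and 1985, 2034 and 2288 CPM in Δxyr1 against 2921, 3897 and 3266 CPM in QM9414 in sophorose. It had an interaction of −6.21 (standard error 0.545, adjusted p = 7.38e-07), and its strain effect in sophorose, −0.68 (standard error 0.353, adjusted p = 0.129), did not pass. The related *cel1b* (ID22197) overlapped between the strains in sophorose and had an interaction of −4.55 (standard error 0.223, adjusted p = 4.23e-09). The polysaccharide monooxygenase *cel61a* (ID73643) was at 2.73, 0.824 and 1.3 CPM in Δxyr1 against 558, 593 and 685 CPM in QM9414 in cellulose, and at 4.54, 9.18 and 2.67 CPM in Δxyr1 against 389.7, 399 and 358 CPM in QM9414 in sophorose, with an interaction of −2.53. For *cel61b* (ID120961) the interaction of −2.85 (standard error 1.06, adjusted p = 0.039) was not called in 8 of the 12 fits that left out a library. They were those without QM9414 cellulose replicate 2 (−2.87) or 3 (−2.80), QM9414 sophorose replicate 2 (−2.73) or 3 (−2.68), Δxyr1 cellulose replicate 2 (−2.58) or 3 (−2.54), and Δxyr1 sophorose replicate 1 (−2.92) or 2 (−2.00). It was also not called with DESeq2 (−2.73), the replicate block (−2.85) or no scaling factors (−2.35). The acetyl xylan esterase *axe1* (ID73632) is by its name a xylan enzyme, and the wording of its annotation placed it in this list. It had an interaction of −2.71, which was not called without Δxyr1 cellulose replicate 2 (−2.37) or 3 (−2.12) or Δxyr1 sophorose replicate 2 (−1.62). A β-glucosidase of family GH3, ID47268, went against the list with 721, 749 and 643 CPM in Δxyr1 against 179.8, 192 and 209 CPM in QM9414 in cellulose and an overlap in sophorose, and an interaction of 1.79 (standard error 0.178, adjusted p = 2.38e-06).

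Among 46 hemicellulases, 10 (21.7%) had the interaction below 0 and 6 (13%) above 0, beside 16.8% and 11.8% of all genes, with a median of −0.04, and 21 were lower in Δxyr1 in cellulose and 20 in sophorose. Without scaling factors 8 were below 0 and 10 above 0, with a median of 0.57 where all genes had 0.49. The xylanases ID120229 (XYN3) and ID123818 (XYN2), which cut xylan chains, had interactions of −4.08 (standard error 0.838) and −3.02 (standard error 0.693). Without Δxyr1 sophorose replicate 2 that of ID123818 was −1.91 and was still called. Mannanase *man5a* (ID56996) had 1.07, 0.0687 and 0.0815 CPM in Δxyr1 against 318, 389 and 336 CPM in QM9414 in cellulose, and 0.207, 0.642 and 0.144 CPM in Δxyr1 against 10.7, 6.32 and 5.69 CPM in QM9414 in sophorose, with an interaction of −5.61 (standard error 1.16, adjusted p = 0.00126). Levels in Δxyr1 were near 0 on both carbon sources, while those in QM9414 differed between them, so the size of this interaction rests on few reads in Δxyr1. No read was counted on the α-xylosidase/α-glucosidase ID69944 in the 3 Δxyr1 cellulose libraries, against 58.5, 72.5 and 55.8 CPM in QM9414, which with a floor of 3 counts over the group is at least 732-fold lower. Its interaction of −6.16 depends on how the fit treats the zeros. The arabinofuranosidase ID123283 (ABF1), at −2.69, followed the xylanases, whereas the α-galactosidase ID75015 (1.82) and the GH76 α-1,6-mannanase ID27395 (2.23) had interactions above 0. The wording of its annotation placed the GH76 enzyme in this list, and its substrate was not examined. The single opposite member was the GH79 β-glucuronidase ID71394, which was under 1 CPM on average in all 4 groups and lost that call in 6 of the 12 fits that left out a library.

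Among regulators of cellulase genes, *lae1* (ID41617), a regulator of the methyltransferase type, had the interaction called. It had 34.6, 42 and 35.7 CPM in Δxyr1 against 80.7, 87.2 and 84.4 CPM in QM9414 in cellulose, and 47.4, 45.1 and 43.7 CPM in Δxyr1 against 39.8, 36.2 and 36.7 CPM in QM9414 in sophorose. Its interaction was −1.44 (standard error 0.19, adjusted p = 3.00e-05), and the strain effect in sophorose, 0.27 (standard error 0.134), was not called. Without scaling factors the interaction of *lae1* was −0.86 and missed the fold threshold. The interactions of *ace1* (ID75418) and *cre1* (ID120117) were 0.56 (standard error 0.27) and −0.62 (standard error 0.29) and did not pass, and without scaling factors that of *cre1* (0.04) was above 0.

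The 2 interactions farthest from 0 among the 8506 genes were those of a copper transporter and a ferric reductase whose strain effect was called in sophorose alone. Copper transporter Ctr (ID52315), which brings copper into the cell, had 2394, 2656 and 1414 CPM in the Δxyr1 sophorose libraries against 3.22, 4.28 and 2.58 CPM in QM9414, a strain effect of 9.32 (standard error 1.34, adjusted p = 7.43e-05). In cellulose it had 45.8, 18.8 and 15.2 CPM in Δxyr1 against 258, 6.29 and 9.16 CPM in QM9414, so that QM9414 replicate 1 lay above and replicates 2 and 3 below every Δxyr1 library. Ferric reductase ID23353 had 800.04, 621 and 501 CPM in Δxyr1 against 1.02, 1.02 and 1.08 CPM in QM9414 in sophorose, and 12.1, 6.11 and 5.54 CPM in Δxyr1 against 54, 5.57 and 6.95 CPM in QM9414 in cellulose. The copper transporter ID62716 and the SSCRP ID123086 had the pattern of ID52315, with 150.2, 5.5 and 11.1 CPM and 199, 4.79 and 10.6 CPM in the QM9414 cellulose libraries. The interactions were −11.11 (standard error 1.61), −10.77 (standard error 1.06), −8.67 (standard error 1.26) and −9.42 (standard error 1.42) in the order of naming, and all were called with each library left out. Without QM9414 cellulose replicate 1 they were −7.55, −8.94, −5.93 and −6.21, so that ID52315 then lay closer to 0 than the ferric reductase ID110666, whose interaction was −8.85 or further from 0 with each library left out. Without that replicate the strain effects in cellulose of the 4 genes changed sign. That of ID52315 was 1.77 in place of −1.79, that of ID23353 was 0.31 in place of −1.52, that of ID62716 was 2.20 in place of −0.54, and that of ID123086 was 1.07 in place of −2.14. Both ID52315 and ID62716 were then called higher in Δxyr1 on both carbon sources, as was ID123086. In the other direction, the strain effect in cellulose was called lower without QM9414 cellulose replicate 2 for ID52315 (−2.34), ID23353 (−1.97) and ID123086 (−2.69), and without replicate 3 for ID23353 (−1.95) and ID123086 (−2.65), which would make these genes opposite. All 4 genes were abundant in glucose, ID52315 at 817, 1910 and 1930 CPM in Δxyr1 and 400 and 339 CPM in QM9414. The Epl1/Sm1 protein ID22386, a secreted protein that plants recognise, had 3669, 4293 and 3924 CPM in Δxyr1 against 20.8, 21.2 and 24.9 CPM in QM9414 in sophorose and overlapped in cellulose, with 292, 151 and 128 CPM in Δxyr1 and 318, 84.6 and 208 CPM in QM9414. Its interaction was −7.57 (standard error 0.614, adjusted p = 3.55e-07).

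**Figure D5:**
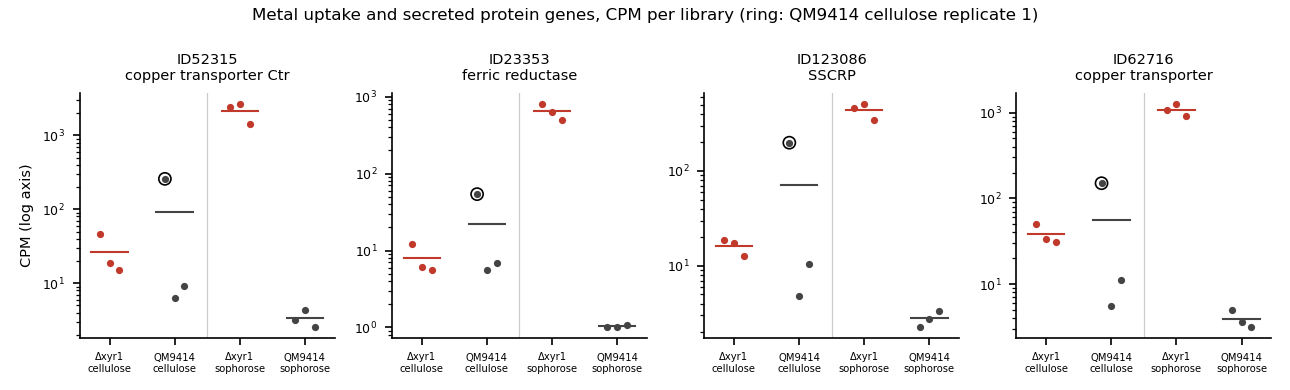
CPM on log axes per library (points) with the group mean (line) for 4 genes whose interaction was called below 0, Δxyr1 in red and QM9414 in grey, with QM9414 cellulose replicate 1 ringed. The ringed library lies above the other QM9414 cellulose libraries in each panel, at 258 CPM for ID52315, 54 CPM for ID23353, 199 CPM for ID123086 and 150.2 CPM for ID62716, while the Δxyr1 sophorose libraries lie above all others.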

How the data were processed

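RNA-seq reads were mapped by the authors with TopHat2 2.0.4 to the *T. reesei* 2.0 genome, keeping unique alignments with at most 2 mismatches. Raw counts per gene were deposited, made with HTSeq 0.6.0. Per the labels, SAMtools 0.1.19 and DESeq2 1.6.3 were also used by the authors, and the strand setting of the counting was not given in the sources used here. From the deposited counts, genes reaching 10 counts in 2 or more libraries were kept (8506 of 9129), and 1 edgeR 4.0.16 quasi-likelihood model with TMM scaling (R 4.3.3) was fitted to 17 libraries in 6 groups, with the interaction and each strain effect as contrasts. One QM9414 glucose replicate was not analysed here. The common biological coefficient of variation was 0.205. DESeq2 1.42.0, other scalings and filters, a replicate block and libraries left out were alternatives. Function lists were made from the deposited descriptions. Members, lists and named genes were chosen with earlier results of these data known. Named genes were *xyr1*, the 12 described and 3 unknown genes with the largest interaction in each opposite class, 2 in each function list with 4 or more opposite genes, the 6 largest in each direction among the other genes called, all at 10 CPM or more in a group and without overlap in both carbon sources where opposite, and cellulase, hemicellulase and regulator genes, of which 1 is not reported here. In simulated data with 8506 genes, 100 were given opposite effects of 4-fold and another 100 of 2-fold, and no other effects were put in. With edgeR, 97% were recovered as opposite at 4-fold and 24% at 2-fold, which lies at the threshold. DESeq2 recovered 98% and 24%. There were 5 false interaction calls with edgeR and 19 with DESeq2, and 0 false opposite calls with either. The rate of false opposite calls in the deposited libraries was not tested.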

Additional observations from a re-analysis of the deposited data

Results flagged for a closer look

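The strain effect differed between cellulose and sophorose by a test of the difference itself, the interaction of edgeR's model, for 1002 genes above 0 and 1431 below 0. Opposite strain effects were called for 97 genes that were higher in Δxyr1 in cellulose and lower in sophorose and for 119 of the reverse kind. Log2 interactions of the named genes follow in brackets.

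Among genes higher in cellulose and lower in sophorose they were ID59065 (8.88), ID108232 (7.73), ID105820 (7.36), ID121111 (7.34), ID66551 (6.62), ID72183 (6.20), ID4146 (5.95), ID22590 (5.11), ID62165 (5.06) and ID112516 (4.94). Further values of this class were ID103060 (4.90), ID44628 (4.85), ID5807 (4.66), ID78462 (4.60), ID109278 (4.46), ID120363 (4.34), ID120927 (3.97), ID104372 (2.76) and ID121839 (2.54). Among genes lower in cellulose and higher in sophorose they were ID76682 (−9.47), ID122363 (−9.47), ID110666 (−9.26), ID3363 (−7.27), ID124259 (−7.02), ID46285 (−6.73), ID79202 (−6.68), ID54227 (−6.06), ID74282 (−5.82), ID104072 (−5.79), ID102966 (−5.72), ID65547 (−5.65), ID108663 (−5.49) and ID57179 (−5.26). Further values of that class were ID65882 (−5.18), ID66788 (−5.18), ID111912 (−5.17), ID119924 (−5.14), ID71039 (−3.90), ID60616 (−3.76), ID55362 (−3.40), ID123114 (−3.02) and ID3568 (−2.88). Genes called in cellulose alone were ID106164 (−6.74), ID120749 (−6.21), ID75247 (5.95), ID109101 (5.62), ID123550 (4.95), ID22197 (−4.55), ID103189 (4.50), ID80273 (4.34), ID75015 (1.82), ID47268 (1.79) and ID41617 (−1.44). Genes called in sophorose alone were ID52315 (−11.11), ID23353 (−10.77), ID123086 (−9.42), ID62716 (−8.67), ID58366 (7.87), ID22386 (−7.57) and ID27395 (2.23). Genes called in 1 direction on both carbon sources were ID69944 (−6.16), ID56996 (−5.61), ID120229 (−4.08), ID123818 (−3.02), ID120961 (−2.85), ID73632 (−2.71), ID123283 (−2.69) and ID73643 (−2.53). Groups of 3 libraries are too small for a test of single libraries that lie apart.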

How the results depend on the processing

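Without scaling factors, 2153 interactions were called above 0 and 575 below 0, 208 and 53 genes were opposite in the 2 classes, and 410 genes were called higher and 1428 lower in Δxyr1 in sophorose. With no fold threshold, 1668 interactions were above 0, 460 and 412 genes were opposite, 1657 were higher and 1794 lower in cellulose, and 2134 were higher and 1770 lower in sophorose, since the threshold itself removes genes. The TMM factor of Δxyr1 sophorose replicate 3 was 0.528, while the other libraries compared lay between 1.021 and 1.307. In that library ID48266 took 35% and ID61593 10% of the counts. The cause of the change without scaling factors was not tested. The counts of interactions and of opposite genes stayed within 1.5 times under RLE and upper-quartile factors, DESeq2, no filter, a filter of 1 CPM and 12 libraries only. With each library left out, the interaction counts lay between 943 and 1176 above 0 and between 1288 and 1471 below 0, the opposite counts between 84 and 114 and between 93 and 133, those in cellulose between 657 and 769 higher and 747 and 922 lower, and those in sophorose between 751 and 990 higher and 479 and 703 lower.

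Same-numbered replicates correlated in some groups, and the main fit had no replicate term. Their deviations correlated over 0.1 in 7 of 18 pairs, between −0.224 and 0.348. Pairs with different numbers lay between −0.497 and 0.271, so some of them were over 0.1 as well. Whether the replicates were paired was not tested. Among Δxyr1 cellulose, Δxyr1 sophorose and QM9414 sophorose, replicates 1 correlated at 0.316, 0.226 and 0.336, and replicates 3 at 0.348, 0.27 and 0.322. Replicates 2 of these groups were at −0.11, 0.019 and 0.092. Same-numbered pairs with QM9414 cellulose were at 0.127 or below. With the replicate number as a block, 1002 interactions were above 0 and 1435 below 0, and 100 and 128 genes were opposite, of which 96 and 116 were shared.

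Signs that changed were, without scaling factors, the interaction of ID120117 (0.04), the sophorose effect of ID103189 (−0.07) and the cellulose effect of ID22386 (0.11, and 0.02 with upper-quartile factors). Without both libraries that stood apart, an alternative chosen after seeing the data, the cellulose effects were 1.81 for ID52315, 0.35 for ID23353, 1.11 for ID123086, 2.24 for ID62716 and 0.42 for ID22386. With each library left out, the cellulose effect lay between −2.42 and 1.77 for ID52315, −1.97 and 0.31 for ID23353, −2.69 and 1.07 for ID123086, −1.08 and 2.20 for ID62716, and −0.55 and 0.38 for ID22386, and the sophorose effect of ID103189 between −0.14 and 0.43. Effects close to 2-fold lie at the threshold, so that genes near it move in and out of the opposite classes.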
